A study of Trichoderma atroviride IMI 206040 with 36 samples.

Results

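Described here are 3 transcription regulator genes, of the 11863 gene models in the deposited table, in mycelium of the filamentous fungus Trichoderma atroviride. Genes 87055 and 41299 are annotated as fungal transcriptional regulatory proteins and gene 87968 as a C2H2 finger domain protein. They were chosen by name, from genes of the study that responded to a blue light pulse in the wild type (WT), so their WT light response is a description with no test. The study named gene 87055 for its response in Δenv-1 too, so every value of that gene that uses a Δenv-1 library is also given with no test. The study asked which photoreceptors carry the response of the transcriptome to blue light. The 4 strains analysed were the mutants Δblr-1, Δblr-2 and Δenv-1, and WT. Each was grown for 36 h on potato dextrose agar covered with cellophane. Mycelium given blue light at 200 µmol·m-2 was collected 30 min after the pulse (light), and mycelium of plates that got no blue light was the control (darkness). Each of the 8 groups had 3 biological replicates. Of the 24 libraries 23 entered the fit, because the submitters set aside the third dark library of Δenv-1. The 2 dark libraries of Δenv-1 that were kept also differed widely from each other in markers of conidia, as given below. In Δenv-1 the env-1 coding region had been replaced by the hygromycin resistance gene hph, and the work used 1 purified transformant. Δblr-1 came from earlier work, and Δblr-2 was deposited but not used in the study.

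In filamentous fungi blue light is read by a pair of GATA-type zinc finger proteins, called White Collar in Neurospora crassa and BLR-1 and BLR-2 in Trichoderma, of which BLR-1 carries the flavin chromophore. ENVOY, the product of env-1, is the counterpart of Neurospora VIVID, a small flavin-binding protein that dampens the light response once it has begun. Many of the genes that light switches on encode transcription factors themselves, which pass the signal on to later genes. Regulators of the zinc cluster family, which are largely found in fungi, often control pathways of nutrient use or secondary metabolism, and C2H2 fingers bind DNA in regulators of growth, stress and development.

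The total count per library was between 1519260 and 21505809 in the 23 libraries of the fit, with a median of 7843798, and 22011847 in the library set aside. Levels are given in CPM (counts scaled to a common library size by the TMM method), and depth limits gene 41299 most, with 3 to 169 counts per library against 32 to 941 for gene 87055 and 23 to 1607 for gene 87968. All 24 counts of each of the 3 genes were whole numbers to within 1e-06 of a count. The strain labels were checked on env-1 (gene 150699), which had 256, 241 and 282 CPM in Δenv-1 light libraries and 32.4 and 32.5 CPM in Δenv-1 dark libraries, against 109, 107 and 106 CPM in WT light and 1.74, 1.76 and 2.05 CPM in WT darkness. Reads from the part of the gene left in place keep this from checking the deletion. In Δblr-1 and Δblr-2, env-1 stayed between 0.433 and 2.29 CPM in all 12 libraries. The blr-1 and blr-2 transcripts were not analysed here, so the labels that tell Δblr-1 from Δblr-2 were not checked. Markers of conidia, the asexual spores, were summed over the 3 genes hydrophobin, alb-1 and cmp-1. The sum was 16.3 to 43.9 CPM in Δblr-1, 19.5 to 24.2 CPM in Δblr-2 and 13.9 to 34.3 CPM in Δenv-1 light. In Δenv-1 darkness it was 644 and 19.7 CPM, and 954 CPM in the library set aside. WT had 26.0 to 438 CPM in light and 56.3 to 479 CPM in darkness. All these values come from whole mycelium, so fewer cells of a type and less RNA per cell cannot be told apart.

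Gene 87968 had its highest level in Δblr-2 after light. It read 179, 131 and 176 CPM in Δblr-2 light libraries, against 16.4, 11.8 and 11.5 CPM in Δblr-2 darkness. The groups were about an order of magnitude apart and did not overlap. This was a rise of 3.72 ± 0.287 on the log2 scale (estimate ± SE), or 13.2-fold, with an adjusted p of 2.42e-09 by the quasi-likelihood test of edgeR, Benjamini-Hochberg adjusted over the 9605 genes tested. Only 36 of those genes had a larger estimated rise in Δblr-2. Of the 3 regulators, 1 was called in Δblr-2, where 7.37% of all genes tested were called. A call needed a log2 change of 1 or more with an adjusted p no higher than 0.05.

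In Δblr-1 the same gene read 15.0, 8.97 and 10.6 CPM after light and 7.60, 6.03 and 7.76 CPM in darkness. All the light libraries lay above all the dark ones, but the log2 change of 0.57 ± 0.375 did not pass the test (edgeR adjusted p = 0.605). In Δenv-1, gene 87968 read 11.3, 9.76 and 7.54 CPM after light, against 13.7 and 7.01 CPM in darkness, and the set-aside dark library read 12.4 CPM. The Δenv-1 groups overlapped fully, with a log2 change of -0.05 ± 0.36 (adjusted p = 0.989, 95% interval -0.753 to 0.658). WT libraries read 44.4, 28.5 and 50.4 CPM after light and 25.0, 7.74 and 17.8 CPM in darkness, a log2 change of 1.31 ± 0.287 that belongs to the values on which the gene was chosen. WT replicate 2 was the lowest library in both WT groups.

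**Figure D1:**
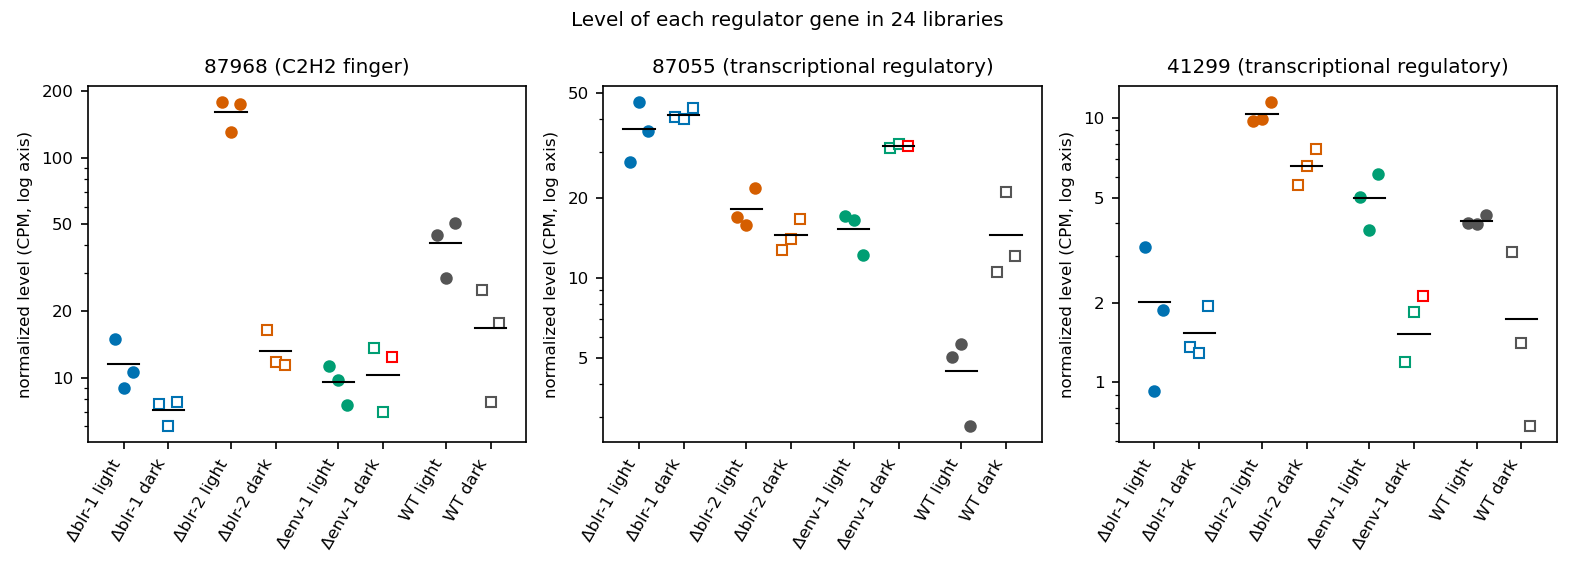
Level of genes 87968, 87055 and 41299 in each library, in CPM on log axes. Filled circles are light and open squares darkness, lines are group means, and the red square is the Δenv-1 dark library left out of the fit and of the mean. Gene 87968 stands at 131 to 179 CPM in Δblr-2 light, gene 87055 is lowest in WT light, and gene 41299 is highest in Δblr-2.

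The difference between mutant responses was itself tested for gene 87968. Its response in Δblr-2 exceeded that in Δblr-1 by 3.16 ± 0.475 on the log2 scale (adjusted p = 7.24e-05), and its response in Δenv-1 was below that in Δblr-2, at -3.77 ± 0.458 (adjusted p = 4.58e-06). The Δenv-1 response minus the Δblr-1 response was -0.61 ± 0.52 (adjusted p = 0.803). The study placed this gene's light response under BLR-1, as judged from these Δblr-1 libraries. The differences that use Δblr-1 are thus not independent of that choice. Set against the WT response, with no test, the differences were -0.74 ± 0.477 for Δblr-1, 2.42 ± 0.407 for Δblr-2 and -1.35 ± 0.461 for Δenv-1. All 3 share the WT libraries.

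Gene 87055 had its lowest level in WT after light, and in Δenv-1 the light libraries also lay below the dark ones. In Δenv-1 it read 17.2, 16.5 and 12.2 CPM after light, against 31.0 and 32.1 CPM in darkness, and the set-aside dark library read 31.6 CPM. The groups did not overlap, and the log2 change was -1.04 ± 0.231. In WT the light libraries read 5.02, 5.65 and 2.77 CPM and the dark ones 10.6, 21.1 and 12.1 CPM. In WT the log2 change was -1.80 ± 0.273, and both changes are descriptions. In WT 17 of the genes tested had a larger estimated fall, a rank that rests on the values by which the gene was chosen.

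Neither BLR mutant showed a called light response of gene 87055. The study named this gene among those whose WT light response depended on BLR-1, as judged from these Δblr-1 libraries. Lack of a call in Δblr-1 was thus part of the choice and is not independent evidence, while the study did not use Δblr-2. In Δblr-1 gene 87055 read 27.4, 46.1 and 35.9 CPM after light and 40.5, 39.9 and 43.8 CPM in darkness. These groups overlapped, with a log2 change of -0.09 ± 0.208 (adjusted p = 0.95). In Δblr-2 it read 17.01, 15.9 and 21.9 CPM after light and 12.8, 14.1 and 16.7 CPM in darkness, a log2 change of 0.28 ± 0.225 (adjusted p = 0.356). With no test, the Δenv-1 response minus the Δblr-2 response was -1.32 ± 0.324 and minus the Δblr-1 response -0.95 ± 0.311. The Δblr-2 response minus the Δblr-1 response was 0.37 ± 0.306 (adjusted p = 0.482). Relative to WT, again with no test, the response was higher by 1.70 ± 0.343 in Δblr-1, by 2.07 ± 0.354 in Δblr-2 and by 0.75 ± 0.36 in Δenv-1. The Δenv-1 value was 0.37 without WT dark replicate 2.

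Gene 41299, the least abundant in counts, rose with light in Δenv-1. It read 5.05, 3.77 and 6.17 CPM in Δenv-1 light libraries, against 1.19 and 1.85 CPM in darkness, and the set-aside dark library read 2.13 CPM. The groups did not overlap, and the rise was 1.64 ± 0.371 on the log2 scale, or 3.12-fold (edgeR adjusted p = 0.00968). This call rests on single libraries: without light replicate 3 the estimate was 1.44 (adjusted p = 0.0515) and without dark replicate 1 it was 1.43 (adjusted p = 0.117). In Δenv-1, where 1.28% of all genes tested were called, 1 of the 2 regulators tested was called, gene 41299. It also stands in the study's own list of light-responsive genes of Δenv-1, which was made from the same libraries.

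In Δblr-2, gene 41299 read 9.80, 9.97 and 11.5 CPM after light and 5.60, 6.59 and 7.65 CPM in darkness. These groups did not overlap, but the log2 change of 0.62 ± 0.277 missed both thresholds (adjusted p = 0.0856). In Δblr-1 it read 3.26, 0.932 and 1.88 CPM after light and 1.36, 1.30 and 1.94 CPM in darkness, and the log2 change was -0.07 ± 0.431 (adjusted p = 0.992). The highest Δblr-1 value is from the library of lowest depth and stands on 5 counts. In WT the light libraries read 3.999, 3.98 and 4.29 CPM and the dark ones 3.12, 1.41 and 0.684 CPM, the dark values from 18, 8 and 3 counts. The WT log2 change was 1.18 ± 0.362, and 1.91 without WT dark replicate 1.

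None of the differences between the mutants' responses of gene 41299 passed the test. The Δenv-1 response minus the Δblr-1 response was 1.72 ± 0.575 (adjusted p = 0.183, and 1.75 with an adjusted p of 0.0486 by the likelihood ratio test of edgeR). The Δenv-1 response minus the Δblr-2 response was 1.03 ± 0.462 (adjusted p = 0.126, and 1.02 with an adjusted p of 0.0425 when only these strains were fitted), and the Δblr-2 response minus the Δblr-1 response was 0.69 ± 0.519 (adjusted p = 0.434). Without Δblr-1 light replicate 2 the first of these was 1.02 and the last 0.0017. Relative to WT, as a description, the response differed by -1.25 ± 0.572 in Δblr-1, -0.56 ± 0.459 in Δblr-2 and 0.46 ± 0.529 in Δenv-1. Without WT dark replicate 1 these became -1.99, -1.29 and -0.27, and without Δblr-1 light replicate 2 the Δblr-1 value was -0.56.

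**Figure D2:**
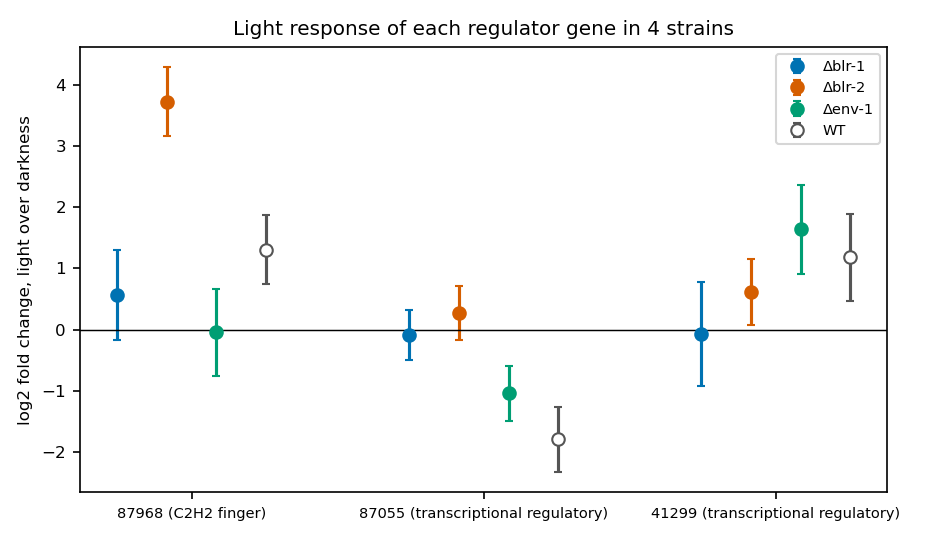
Log2 fold change of light over darkness for each gene in the 3 mutants and WT (open circles). WT values and that of gene 87055 in Δenv-1 are descriptions only. Points are estimates from 1 fit of 23 libraries and bars are 95% intervals from the standard errors. Gene 87968 stands out in Δblr-2 at 3.72, and genes 87055 and 41299 are farther from 0 in Δenv-1 and WT than in Δblr-1.

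Across mutants, 0 of the 3 regulators were called in Δblr-1 by edgeR, where 0.198% of all genes tested were called. An unadjusted edgeR p under 0.05 was found for 0 of the 3 and for 1185 of the 9605 genes tested. DESeq2 and the likelihood ratio test also called 0 of the 3. The study named these genes as dependent on BLR-1, or on other photoreceptors whose dependent genes it also placed under BLR-1. It judged this from the same Δblr-1 libraries. The counts of 0 in Δblr-1 were thus largely set by the choice of genes and are not independent evidence. Few genes were called in Δblr-1 at all, so 0 of 3 carries little information. Of the tests between mutant responses, Δenv-1 against Δblr-2 called 1 of the 2 regulators tested with 20.2% of all genes called, and Δblr-2 against Δblr-1 called 1 of 3 with 15.7%. Δenv-1 against Δblr-1 called 0 of the 2 tested with 1.46% of all genes. Of the 2, gene 41299 had an unadjusted edgeR p under 0.05 there, as did 1030 of the 9605 genes tested. DESeq2 called 0 of these 2 and the likelihood ratio test 1. The counts in which Δblr-2 takes part stand against a large background of called genes. Those in which Δblr-1 takes part are not independent of the choice of genes.

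Levels in darkness were also set against those of WT, with no test, because the WT dark libraries entered the response on which the genes were chosen. Gene 87055 read 40.5, 39.9 and 43.8 CPM in Δblr-1 darkness, against 10.6, 21.1 and 12.1 CPM in WT darkness, with no overlap and a log2 difference of 1.49 ± 0.228. In Δenv-1 darkness, at 31.0 and 32.1 CPM, it also lay above all WT dark libraries, by 1.09 ± 0.245. In Δblr-2 darkness the difference from WT was 0.03 ± 0.242.

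Gene 41299 read 5.60, 6.59 and 7.65 CPM in Δblr-2 darkness, against 3.12, 1.41 and 0.684 CPM in WT darkness, which did not overlap. The log2 difference was 1.91 ± 0.354, beside -0.29 ± 0.426 in Δblr-1 and -0.19 ± 0.44 in Δenv-1. Without WT dark replicate 1 the Δblr-2 difference was 2.64, that of Δblr-1 0.44 and that of Δenv-1 0.54, so the sign of the small differences rests on that library. Gene 87968 differed from WT in darkness by -1.29 ± 0.354 in Δblr-1, -0.45 ± 0.324 in Δblr-2 and -0.80 ± 0.361 in Δenv-1, and libraries of each mutant overlapped those of WT. Leaving out single libraries gave -1.66 to -0.85 in Δblr-1, with -0.85 without WT dark replicate 1, and -1.26 to -0.30 in Δenv-1.

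Between the BLR mutants, whose group means use no WT library, all 3 regulators were called after light, where 10.7% of all genes were called. The spread in these tests came from the fit of all 23 libraries, WT included. After light gene 87968 was higher in Δblr-2 than in Δblr-1 by 4.003 ± 0.312 on the log2 scale (adjusted p = 1.65e-09) and gene 41299 by 2.89 ± 0.366 (adjusted p = 1.8e-06). Gene 87055 went the other way, at -1.08 ± 0.217 (adjusted p = 0.000412), and its estimate was under the fold minimum without Δblr-1 light replicate 2 (-0.84) or without Δblr-2 light replicate 2 (-0.98). In darkness 2 of the 3 were called, with 3.88% of all genes: gene 41299 was higher in Δblr-2 by 2.20 ± 0.343 (adjusted p = 8.21e-05) and gene 87055 lower, at -1.45 ± 0.217 (adjusted p = 4.93e-05). The dark difference of gene 87968 was 0.84 ± 0.347 (adjusted p = 0.0973). The lower level of gene 87055 and the higher level of gene 41299 in Δblr-2 relative to Δblr-1 were thus called in light and in darkness.

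Between Δenv-1 and Δblr-1 after light, 1 of the 2 regulators tested was called, with 1.41% of all genes called. Gene 41299 was higher in Δenv-1 by 1.81 ± 0.379 (adjusted p = 0.004), and by 1.12 (adjusted p = 0.168) without Δblr-1 light replicate 2. For gene 87968 the difference was -0.11 ± 0.35 (adjusted p = 0.934). Gene 87055 differed by -1.34 ± 0.219, with no test, and its libraries of the 2 strains did not overlap. In darkness edgeR called 0 of the 2 tested between these mutants, as did DESeq2 and the likelihood ratio test, and 0.135% of all genes were called. An unadjusted edgeR p under 0.05 was found there for 0 of the 2 and for 650 of the 9605 genes tested. The estimates there were 0.09 ± 0.423 for gene 41299 and 0.50 ± 0.384 for gene 87968, and, with no test, -0.39 ± 0.225 for gene 87055.

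After light, relative to WT and with no test, gene 87055 differed by 3.19 ± 0.249 in Δblr-1, 2.11 ± 0.255 in Δblr-2 and 1.85 ± 0.256 in Δenv-1. Gene 41299 differed by -1.54 ± 0.379, 1.35 ± 0.281 and 0.27 ± 0.292 in the same strains, and the Δblr-1 value was -0.84 without Δblr-1 light replicate 2. Gene 87968 differed by -2.03 ± 0.313, 1.97 ± 0.246 and -2.15 ± 0.287. Mutants thus stood on both sides of WT for genes 41299 and 87968.

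Ordered by mean CPM, gene 87055 was at 41.4 ± 2.06 in Δblr-1 darkness and 36.5 ± 9.4 in Δblr-1 light (SD, n = 3 each), then at 31.6 ± 0.742 in Δenv-1 darkness (n = 2), and these neighbours overlapped. A gap separated them from Δblr-2 light (18.3 ± 3.19), Δenv-1 light (15.3 ± 2.68), WT darkness (14.6 ± 5.69) and Δblr-2 darkness (14.5 ± 2.01), which overlapped each other in turn, and a further gap from WT light (4.48 ± 1.52). For gene 41299, Δblr-2 light (10.4 ± 0.938) stood clear of Δblr-2 darkness (6.61 ± 1.02), which overlapped Δenv-1 light and through it WT light (4.09 ± 0.173). Below a gap, Δblr-1 light (2.02 ± 1.17), WT darkness (1.74 ± 1.25), Δblr-1 darkness (1.53 ± 0.354) and Δenv-1 darkness (1.52 ± 0.464) overlapped. For gene 87968, Δblr-2 light (162 ± 26.6) and WT light (41.1 ± 11.3) stood clear of each other and of the rest. The other 6 groups overlapped in turn between WT darkness (16.8 ± 8.66) and Δblr-1 darkness (7.13 ± 0.958).

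Within WT, the library lowest in conidiation markers was also the lowest in gene 87968. WT replicate 2 had the lowest marker sum in both groups, 26.0 CPM in light and 56.3 CPM in darkness, against 311 and 438 CPM in the other light libraries and 256 and 479 CPM in the other dark libraries, and it also had the lowest level of gene 87968. In Δenv-1 darkness the library with a marker sum of 644 CPM read 13.7 CPM of gene 87968 and the one with 19.7 CPM read 7.01 CPM. The Δenv-1 dark library set aside had a sum of 954 CPM and read 12.4 CPM of the gene. In Δblr-2 light, where the gene was highest, the sum was only 19.5 to 24.2 CPM. Gene 87055 in WT darkness was highest in replicate 2, at 21.1 CPM. WT replicate 2 also stood apart over all genes. The chi-square per gene between WT light libraries was 36.5 for replicates 2 and 3, 24.16 for 1 and 2, and 6.035 for 1 and 3. In WT darkness the pairs with replicate 2 also differed most. Gene 310560, a C2H2 type zinc finger protein, was likewise lowest in WT replicate 2, at 258.4 CPM in light and 168.6 CPM in darkness. The low level in this library is thus not particular to gene 87968. The part of conidiation in the differences that use WT or Δenv-1 dark libraries was not tested.

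**Figure D3:**
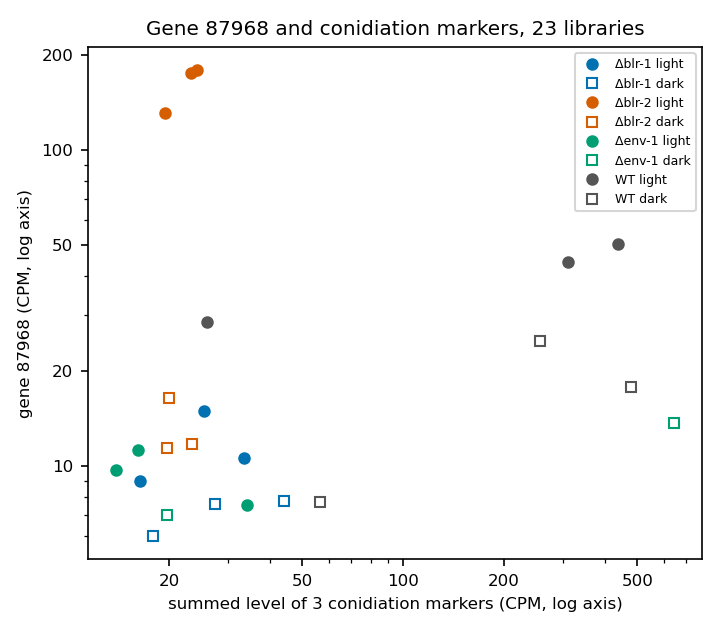
Gene 87968 against the summed level of the 3 conidiation markers, both in CPM on log axes, in the 23 libraries of the fit. Colours are strains, filled circles light and open squares darkness. The Δblr-2 light libraries combine 131 to 179 CPM of gene 87968 with marker sums under 25 CPM, while marker sums over 200 CPM occur in 4 WT libraries and 1 Δenv-1 dark library.

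The likeness of other genes to the 3 regulators was measured as Pearson's r of log2(CPM + 1) over the 23 libraries, which share strains and treatments. For gene 87055 the closest of the 9605 genes was gene 36860, which the study's lists call a FAD monooxygenase, at r = 0.935. It is also the next gene to 87055 in the RefSeq gene order of another strain, P1 (assembly ASM2064779v1), where their annotated spans do not overlap. Gene 36860 read 7.74, 9.83 and 7.35 CPM in Δenv-1 light, against 21.5 and 16.7 CPM in Δenv-1 darkness. Its log2 light changes were -0.17 ± 0.175 in Δblr-1 (adjusted p = 0.807) and 0.36 ± 0.179 in Δblr-2 (adjusted p = 0.118), and, as descriptions, -1.16 ± 0.192 in Δenv-1 and -1.30 ± 0.201 in WT. In Δblr-1 darkness it read 23.97, 23.1 and 20.5 CPM, against 8.85, 15.7 and 10.03 CPM in WT darkness. That log2 difference was 0.96 ± 0.182, with no test. The study named gene 36860 together with gene 87055, so its light values in WT, Δblr-1 and Δenv-1 are not independent of that choice.

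**Figure D4:**
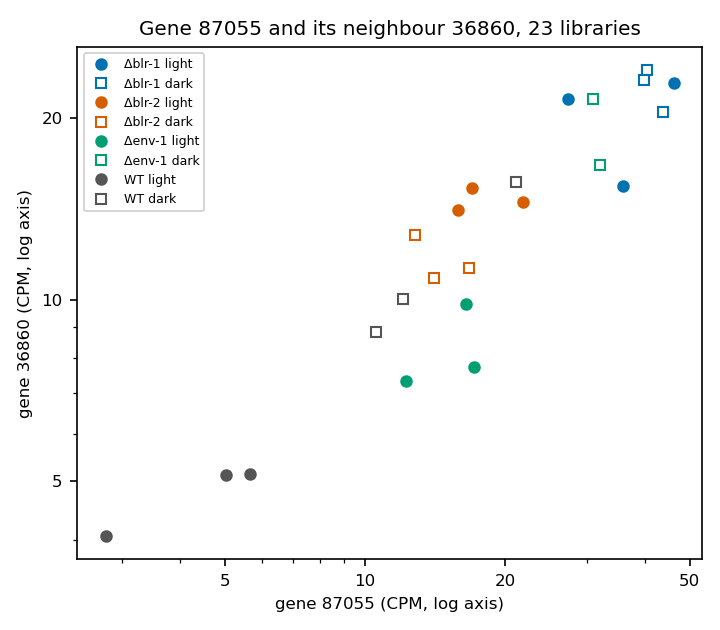
Gene 87055 against gene 36860, its neighbour in the gene order of strain P1, both in CPM on log axes, in the 23 libraries of the fit. Colours are strains, filled circles light and open squares darkness. WT light libraries lie lowest for both genes (2.77 to 5.65 CPM and 4.06 to 5.14 CPM), and Δblr-1 and Δenv-1 dark libraries lie among the highest.

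On the other side of gene 87055 lies gene 319304, with log2 light changes of 0.08, -0.38 and -0.52 in Δblr-1, Δblr-2 and Δenv-1, none called. Its WT change, given with no test, was 1.13, opposite in sign to that of gene 87055. Of the 4 genes next to 41299 and 87968, 3 were tested (40423, 40037 and 308675) and none was called in a mutant, while gene 308677 was below the count filter. The WT changes of genes 40423, 40037 and 308675, again with no test, were 0.80, 0.63 and 0.36. The next genes in likeness to 87055, genes 301301 and 302330 (r = 0.92 and 0.906), had light changes no farther from 0 than -0.28 in any strain. Those closest to 41299, genes 145930, 128696 and 35132 (r = 0.881, 0.879 and 0.861), changed by between 0.06 and 0.56. For gene 87968 the closest were genes 302318, 211836 and 146809 (r = 0.971, 0.969 and 0.969). Gene 211836, annotated as an SNF2 family protein, the family of chromatin remodelling ATPases, read 827, 590.0 and 744 CPM in Δblr-2 light, against 48.8, 57.2 and 61.9 CPM in Δblr-2 darkness. The light changes of genes 302318, 211836 and 146809 in Δblr-2 were 1.90, 3.66 and 4.02 on the log2 scale. The Δblr-1 changes of the same genes were 0.39, 1.08 and 0.47. Their Δenv-1 changes were 0.26, 0.21 and 0.61, and their WT changes 0.54, 0.54 and 0.77. These genes were picked for their likeness over the same libraries, so these values are a description.

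Among 12 other transcription regulators on the study's lists of light-responsive genes, 7 were called in WT, 6 of them higher and 1 lower, where 1.28% of all genes were called. The study chose them on these samples, so the counts in WT, Δblr-1 and Δenv-1, whose lists supplied them, are not independent evidence. Their largest called WT rise was that of gene 163153, a zinc finger-like protein (2.46 ± 0.203), and the fall was that of gene 309446, a fungal specific transcription factor domain protein (-1.75 ± 0.393). In Δenv-1, 8 of the 12 rose and 0 fell, where 1.28% of all genes were called. They included gene 44933, a fungal specific transcription factor (2.53 ± 0.202, edgeR adjusted p = 1.22e-08), gene 321166, an HMG box protein (2.43 ± 0.162), and gene 297511, a C6 zinc finger protein (2.43 ± 0.084). The remaining 5 were gene 163153 (2.23), gene 165197, annotated as finger protein azf1 (1.72), gene 173171, a cys6 factor (1.67), gene 319089, a CP2 factor (1.55), and gene 49937, a fungal transcriptional regulatory protein (1.32).

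In Δblr-1, 1 of the 12 rose, gene 314457, a C2H2 type zinc finger protein (1.04 ± 0.189, adjusted p = 0.00634), where 0.198% of all genes were called. That count was 2 with the replicate numbers as a block, and 0 without Δblr-1 light replicate 2 or without Δblr-1 dark replicate 2. In Δblr-2, which the study did not use, 2 of the 12 rose where 7.37% of all genes were called, gene 49937 (2.06 ± 0.166, adjusted p = 4.51e-09) and gene 44933 (1.58 ± 0.184, adjusted p = 8.87e-07). There 4 were called without Δblr-2 dark replicate 3. The median log2 change of the 12 was 0.24 in Δblr-1, -0.09 in Δblr-2, 1.61 in Δenv-1 and 1.91 in WT, beside all-gene medians between -0.02 and 0.004. One member, gene 255645 (pcc1), had counts of 0 to 22.6 that were not all whole, so its folds are not given, and without it the medians were 0.15, -0.09, 1.67 and 1.70. Gene 87968 was called in Δblr-2 and not in Δenv-1, while 6 listed regulators rose in Δenv-1 and not in Δblr-2, and genes 44933 and 49937 were called in both. The study's lists include Δenv-1 and not Δblr-2, so this contrast follows in part from how the regulators were listed.

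**Figure D5:**
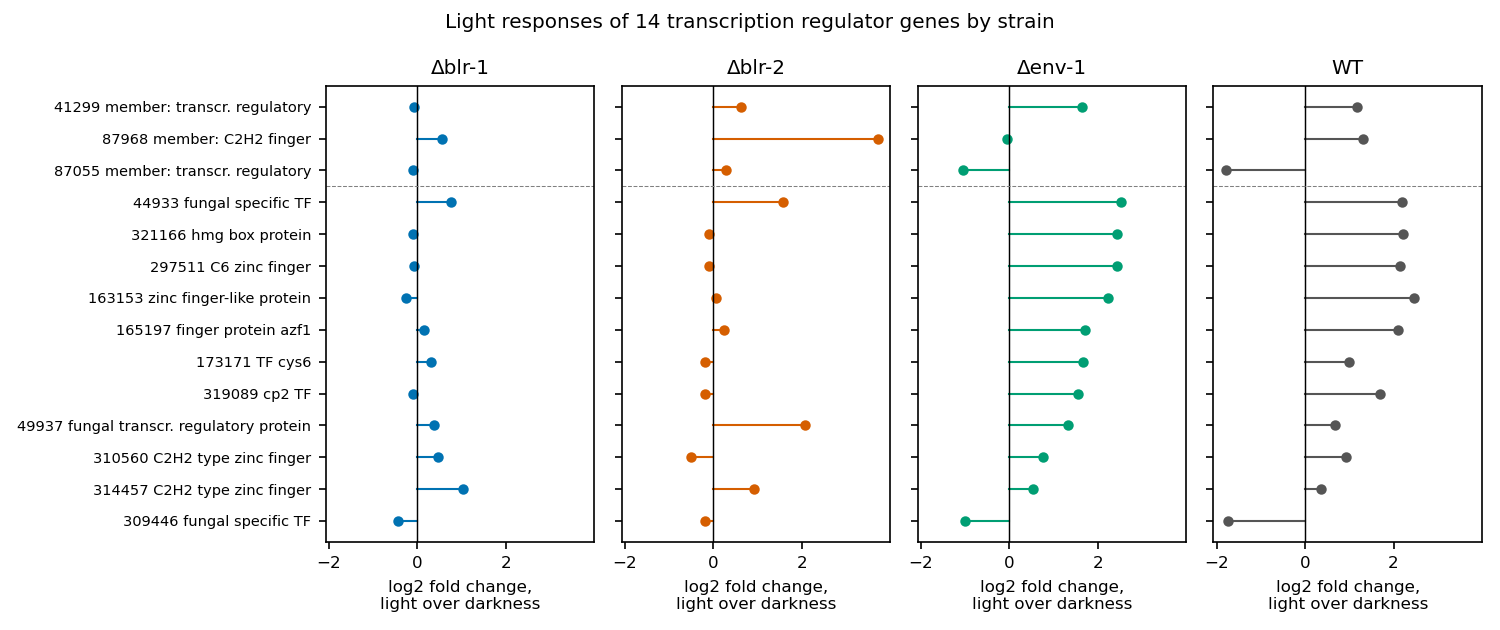
Log2 fold change of light over darkness for the 3 described regulators (top rows) and 11 other regulators on the study's lists, with 1 panel per strain. Gene 255645 is left out for its low, partly fractional counts. In Δblr-2 the longest line is that of gene 87968 (3.72), and in Δenv-1 that of gene 44933 (2.53).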

How the data were processed

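RNA of mycelium was sequenced after TruSeq v2 preparation, for which no strand setting is given. The authors deposited estimated counts per transcript made with Kallisto (version not given in the sources used here), of which 8.35% of values were not whole; they were rounded. Of 36 columns, 12 whose names match none of the 4 strains described here were not used. Counts were fitted in edgeR 4.0.16 (R 4.3.3) with 1 mean per strain and treatment over 23 libraries, TMM scaling, a minimum count of 10 in filterByExpr (9605 genes kept) and quasi-likelihood tests with Benjamini-Hochberg adjustment. A call on a light response or a strain level needed a log2 change of 1 or more with an adjusted p no higher than 0.05, and a call on a difference between responses the p alone. Contrasts with WT darkness, and those of gene 87055 with Δenv-1 libraries, had been set up as tests and are given as descriptions, since the choice of genes used them. Contrasts with Δblr-1 kept their tests, although the study placed these genes under BLR-1 from the same libraries. The p-values measure the spread between biological replicates of a strain, not between independent transformants.

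The genes, lists and tests were chosen with earlier results of these data known. Named are the 3 genes, other regulators called in a mutant or extreme in WT, the 3 genes most correlated with each (pseudocount 1), the annotated neighbours and env-1. The 10686 of 11863 IDs that matched RefSeq gave names and gene order only. Sequences were not analysed here. Deviations of same-numbered light and dark libraries from their group means, over 9605 genes, correlated at 0.211, 0.526 and 0.357 in WT and 0.119, 0.199 and 0.115 in Δblr-1, taken as pairing from the titles' numbers, at 0.115 and 0.113 in Δenv-1 with 2 pairs, and at 0.001 to 0.0883 in Δblr-2. The main fit did not use this pairing, and only the replicate block did. Alternatives were RLE scaling, no filter, unrounded counts, the likelihood ratio test, DESeq2 1.42.0, the strains of a comparison alone, all 24 libraries, a replicate block and leaving out each library.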

Additional observations from a re-analysis of the deposited data

Results flagged for a closer look

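The following 2 differences between mutants in the light response passed their own test. Gene 87968 responded less in Δenv-1 than in Δblr-2, by -3.77 on the log2 scale (SE 0.458, edgeR adjusted p = 4.58e-06), and more in Δblr-2 than in Δblr-1, by 3.16 (SE 0.475, adjusted p = 7.24e-05). Δblr-2 takes part in both, and 20.2% and 15.7% of all genes tested were called in these comparisons. The difference from Δblr-1 uses libraries from which the study placed the gene under BLR-1, so it is not independent of that choice.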

How the results depend on the processing

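Of 335 values under other settings of the fit, 3 changed their call or count, and 11 of 290 with a library left out changed it or moved by more than the spread between replicates. This tally leaves out the WT light responses, the responses relative to WT and the light levels relative to WT. Moves among those were all of gene 41299 and are given beside the results. No called result, and no estimate of 1 or more in size, changed sign. Several smaller estimates did change sign with a library left out. Against WT darkness, gene 41299 went from -0.29 to 0.44 in Δblr-1 and from -0.19 to 0.54 in Δenv-1. The Δenv-1 light change of gene 87968 ranged from -0.53 to 0.43. The likelihood ratio test brought gene 41299 past the threshold for Δenv-1 minus Δblr-1 (1.75), and fitting the strains alone did so for Δenv-1 minus Δblr-2 (1.02). The replicate block raised the other regulators called in Δblr-1 to 2 and changed no other call. Under this block the untested Δenv-1 light change of gene 87055 was -0.91.

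With each library left out, gene 41299 ranged from -0.61 to 0.44 in Δblr-1, from 1.58 to 2.64 in Δblr-2 and from -0.60 to 0.54 in Δenv-1 against WT darkness, with the highest values without WT dark replicate 1. After light, Δblr-2 against Δblr-1 gave -1.22 to -0.84 for gene 87055, and Δenv-1 against Δblr-1 gave 1.12 to 2.04 for gene 41299. The Δenv-1 light response of gene 41299 ran from 1.43 to 2.05. The other regulators called numbered 0 to 1 in Δblr-1 and 2 to 4 in Δblr-2. The libraries behind each are named beside the results, and the cause was not tested. DESeq2 gave no adjusted p for gene 41299 in Δblr-1. Where an arm was left with 1 library, it was assumed to vary like the other groups. Low counts limit gene 41299, with 3 counts in WT dark replicate 3.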
